A study of Mus musculus with 48 samples.

Results

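The genes described here are 41 interferon-stimulated genes, that is, genes whose transcription interferons are known to raise, among the 42713 genes of the deposited tables. They were chosen by symbol, and each of the 41 symbols had exactly 1 row in both tables. They comprise 33 genes that are best known as targets of type I interferon (21 antiviral effectors, 5 transcription factors and feedback regulators, 3 RNA sensors, 3 genes of ADP-ribosylation and the chemokine gene Cxcl10) and 8 genes for GTPases that are best known as targets of interferon gamma (Iigp1, Igtp, Irgm1, Irgm2, Gbp2, Gbp3, Gbp6 and Gbp7). RNA came from α cells and β cells that were sorted by fluorescence out of the islets of male mice aged 6 to 8 weeks.

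All animals, controls included, carried ProGcg-Venus and RIP-Cherry, reporters that mark α cells and β cells through the proglucagon and insulin promoters. They also carried PER2::Luc, a luciferase fused to a clock protein, together with Insulin-rtTA and TET-DTA, a pair that makes diphtheria toxin A in insulin-producing cells once doxycycline is given. The doxycycline animals drank 300 mg of the drug with 2% sucrose, which brings on massive loss of β cells, so the β cells of this group are those that remained. Control animals drank sucrose alone, and both groups were fed at night only from 10 days before the experiment, in 12 h of light and 12 h of dark (part of the animals on an inverted cycle for 2 weeks). In these samples no animals without the toxin transgene received doxycycline, so the drug, the toxin and the loss of β cells cannot be told apart. Cells were taken at ZT0, ZT4, ZT8, ZT12, ZT16 and ZT20 (zeitgeber time, hours after lights on), with 2 libraries for each cell type, treatment and time, 48 in all. The titles place the libraries in an earlier sequencing run (replicate 1 of ZT4 to ZT20, 20 libraries, 16.1 to 28.6 M estimated counts each) and a later one (replicate 2 of every group and both replicates of ZT0, 28 libraries, 37.4 to 69.9 M). Nothing in the labels says that the replicates came from separate animals or when after doxycycline the cells were taken, so p-values measure the spread between these libraries. The α and β cell markers matched the labels of the sort: 8 β cell markers summed in CPM (counts scaled to the size of the library) to 241235 to 432645 in control β libraries and 1009 to 4755 in control α libraries, and 6 α cell markers to 246452 to 387047 CPM in α and 412 to 666 CPM in β. Markers of δ and PP cells, other islet cells, summed to 21519 to 48983 CPM in control α libraries and 343 to 1115 CPM in control β libraries.

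Interferons are secreted proteins that warn cells of infection. Type I interferons act through the receptor chains IFNAR1 and IFNAR2 and the kinases JAK1 and TYK2 on a complex that holds STAT2 and IRF9 and binds the interferon-stimulated response element of target promoters. Interferon gamma, made mainly by T and NK cells, acts through IFNGR1, IFNGR2, JAK1 and JAK2, and its targets carry the gamma-activated site, and many genes answer to both. In islets the response is best known from viral infection and autoimmune diabetes.

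Promoter sequences are shown because the type I and the interferon-gamma type genes are told apart by these elements in textbooks. RefSeq windows from 250 bases before to 50 bases after the gene start (GRCm38.p6) were found for 28 of the 41 genes, and both strands were searched for the core of the interferon-stimulated response element, written GAAA, any 2 bases and GAAA again, and for TTCNNNGAA, the gamma-activated site. The stretches below lie upstream of the start, read 5′ to 3′ on the strand of the gene, with both motifs in capitals; where the response element lies on the other strand, its capitals read as the reverse complement.
Isg15: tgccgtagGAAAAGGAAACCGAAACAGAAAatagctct
Ifit1: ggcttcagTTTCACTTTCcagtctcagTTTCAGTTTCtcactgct
Bst2: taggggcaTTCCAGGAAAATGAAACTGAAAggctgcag
Irf1: agcctgatTTCCCCGAAatgatgag
Igtp: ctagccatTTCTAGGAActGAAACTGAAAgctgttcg
Irgm2: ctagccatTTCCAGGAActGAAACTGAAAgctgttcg
Gbp2: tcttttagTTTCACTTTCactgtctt
Gbp3: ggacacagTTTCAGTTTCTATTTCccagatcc
These lie at chr4:156200867-156200904 (minus strand) for Isg15, chr19:34640777-34640821 (plus) for Ifit1, chr8:71537579-71537616 (minus) for Bst2, chr11:53769916-53769940 (plus) for Irf1, chr11:58199503-58199539 (plus) for Igtp, chr11:58214894-58214930 (plus) for Irgm2, chr3:142620596-142620621 (plus) for Gbp2 and chr3:142559991-142560022 (plus) for Gbp3. The Igtp and Irgm2 stretches hold both motifs side by side and were the same at 36 of 37 bases, the difference being T12C (Igtp first, counted from 1 at the 5′ end of the printed stretch), at a base of the gamma-activated site where any letter counts as a match. Bst2 has the motifs overlapping, Isg15 has the response element in 3 overlapping copies, and the Irf1 stretch holds the gamma-activated site alone. The response element core was present in 18 of the 28 genes (64.3%), against 3.99% of 27025 genes with a window. It was present in 6 of 6 GTPase genes and in 12 of 22 others. The gamma-activated site was present in 8 of 28 (28.6%), against 9.55% of all genes, namely in 3 of 6 GTPase genes and 5 of 22 others. A match is a description of letters and not a site in use.

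In control animals most of the 41 genes were expressed at a low but measurable level in both cell types. Per length and depth (RPKM, within the later run) the order in control β cells was led by Ly6e, a surface protein (median 25.5), Trim25, a ubiquitin ligase of the RNA sensing pathway (19.4), Ifi27 (11.8), Usp18, the protease that removes ISG15 and damps the receptor (9.72), and Cmpk2, a mitochondrial nucleotide kinase (7.93). In control α cells the same run gave Ly6e (63.9), Trim25 (17.8), Ifi27 (13.5), Ifih1 (8.77) and Usp18 (7.06). The last places were held in β cells by Ifi44 (0.00933), Mx1 (0.0178) and Oas3 (0.0183). In α cells they were held by Mx1, listed at 0 in 4 of 7 libraries, Ifi44 (0.00754) and Oas2 (0.00929).

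The 2 cell types differed in this resting level. Of 37 genes that could be tested between 12 control β and 12 control α libraries, with time and run as terms, 22 were lower and 7 higher in β cells (edgeR's quasi-likelihood test with Benjamini-Hochberg adjustment over all genes, threshold 0.05), at a median log2 difference of -0.35. Over all 14945 genes tested 71.4% were called (37.3% lower and 34.2% higher), so the share of called genes is not particular to these. Ifih1, the sensor of long double-stranded RNA, was the furthest apart of the 37: control libraries of the earlier run held 10.1, 13, 10.4, 9.54 and 8.84 CPM in β cells (ZT4, ZT8, ZT12, ZT16 and ZT20 in this order, here and throughout) and 61, 71.9, 52.5, 44.8 and 77.9 CPM in α cells, with no overlap, and the difference was -2.79 ± 0.11 (adjusted p = 2.64e-15). Ifnlr1, the interferon lambda receptor chain and not one of the 41, stood further apart still, at -3.26 ± 0.35 (adjusted p = 3.27e-08). Ifit1, which binds foreign RNA, was lower in β cells (log2 difference -1.67 ± 0.16), as were Ly6e (-1.28 ± 0.10) and Irf9 (-1.04 ± 0.17). Higher in β cells were Oasl2 (1.70 ± 0.25), Ifit3 (1.19 ± 0.36), Mx2 (1.08 ± 0.36), Cmpk2 (0.99 ± 0.09), Stat2 (0.41 ± 0.11), Usp18 (0.36 ± 0.08) and Trim25 (0.16 ± 0.05). Among the GTPase genes 6 of 8 were lower in β cells, from Gbp2 and Irgm2 (-0.94 ± 0.31 and -0.94 ± 0.09) to Igtp (-0.26 ± 0.10), and none was higher. Macrophage markers were not equal in these libraries: 12 of 14 tested were higher and 1 lower in β controls, whose summed level ran from 53.1 to 388 CPM against 42.8 to 125 CPM in α controls. Their part in these differences was not tested.

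**Figure D1:**
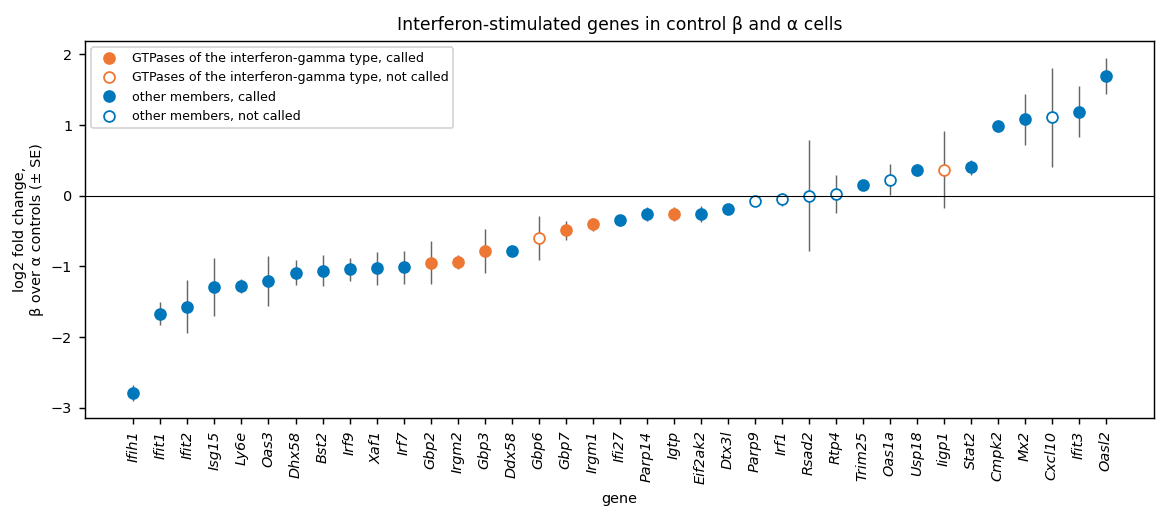
Log2 fold change of β over α control libraries for the 37 genes tested (points, with bars of ± 1 SE; filled points passed an adjusted p of 0.05). Ifih1 lies lowest at -2.79 and Oasl2 highest at 1.70, and 22 of the 29 called genes lie below 0.

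The main pattern was the contrast between the runs. In the earlier run nearly all of these genes were higher after doxycycline in both cell types, including the α cells, in which the toxin is not meant to be made. Of the 41 genes 37 rose and none fell in β cells (median log2 fold change 2.04; 17.7% of 14313 genes rose, median 0.01), and 34 of 40 tested rose and none fell in α cells (median 1.89; 0.864% of 14003 genes rose and 0.0786% fell, median 0.00). Within the later run 9 of 37 tested rose and 2 fell in β cells (median 0.13; 13.9% of 15282 genes rose and 10.6% fell). In α cells of the later run 0 of 38 were called by edgeR (median 0.26; 0% of 15153 genes), while 7 had an unadjusted p under 0.05, all higher, and DESeq2 called 1 (Iigp1). The later run was the deeper of the 2 and had more libraries per group (7 against 5).

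Counts per gene have to be read with the filter on low counts, because a gene that enters only through its doxycycline libraries had to be higher there. On the control libraries alone 31 of the 41 genes passed in β cells of the earlier run, and 27 of these 31 rose (median 1.52; 15.3% of genes so selected rose); the 10 that passed only with doxycycline were Ifit2, Isg15, Mx1, Oas2, Oas3, Zbp1, Ifi44, Iigp1, Gbp6 and Cxcl10. In α cells 29 passed on controls alone and 25 of these rose (median 1.22; 0.716% of genes so selected). For the later run 31 passed in β cells, of which 6 rose and 2 fell (median 0.03; 12.6% of genes so selected rose), and 30 in α cells, of which edgeR called none (median 0.17; 0% of genes so selected). Oas2 was not tested in α cells of the earlier run; Mx1, Oas3, Zbp1 and Ifi44 were not tested in β cells of the later run, nor Mx1, Oas2 and Ifi44 in α cells.

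The separation within the earlier run was complete for most genes. Every doxycycline library lay above every control library for 34 of the 40 genes tested in α cells (1.05% of all genes; 0.271% lay wholly below) and for 32 of 41 in β cells (7.96% of all genes; 7.04% lay wholly below). This held in later-run β cells for Ifit2 and Bst2 (3.04% of all genes), Dtx3l lay wholly below its controls (2.85% of all genes), and in α cells no gene was apart (0.0198% of all genes above, 0.0594% below). All 34 genes called in α cells were also called in β cells, where edgeR called Mx1, Oas2 and Oas3 as well. DESeq2 called Mx1 and Oas3 in α cells too, and Oas2 was not tested there. These counts take in the genes that passed the filter only with doxycycline, 11 in α and 10 in β cells. Whether the 2 cell types came from the same animals is not given in the labels.

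**Figure D2:**
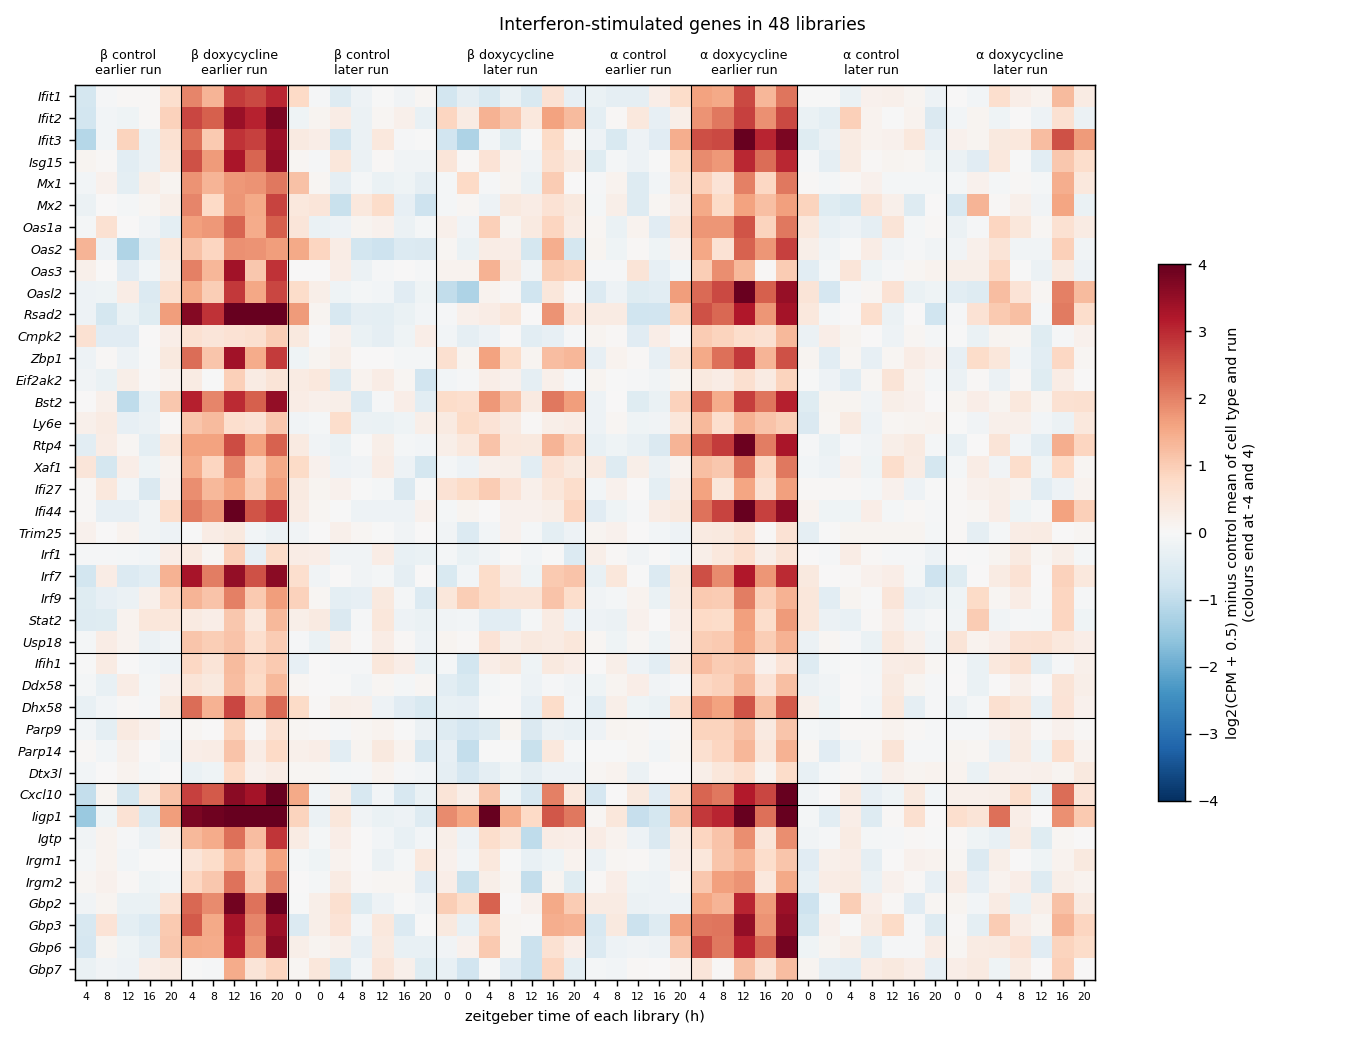
Each of the 41 genes (rows, grouped by role) in each of 48 libraries (columns, by zeitgeber time), as log2(CPM + 0.5) minus the mean of the control libraries of the same cell type and run. The 2 blocks of earlier-run doxycycline libraries are high in nearly every row, and those of the later run are near 0 apart from single libraries such as ZT16.

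**Figure D3:**
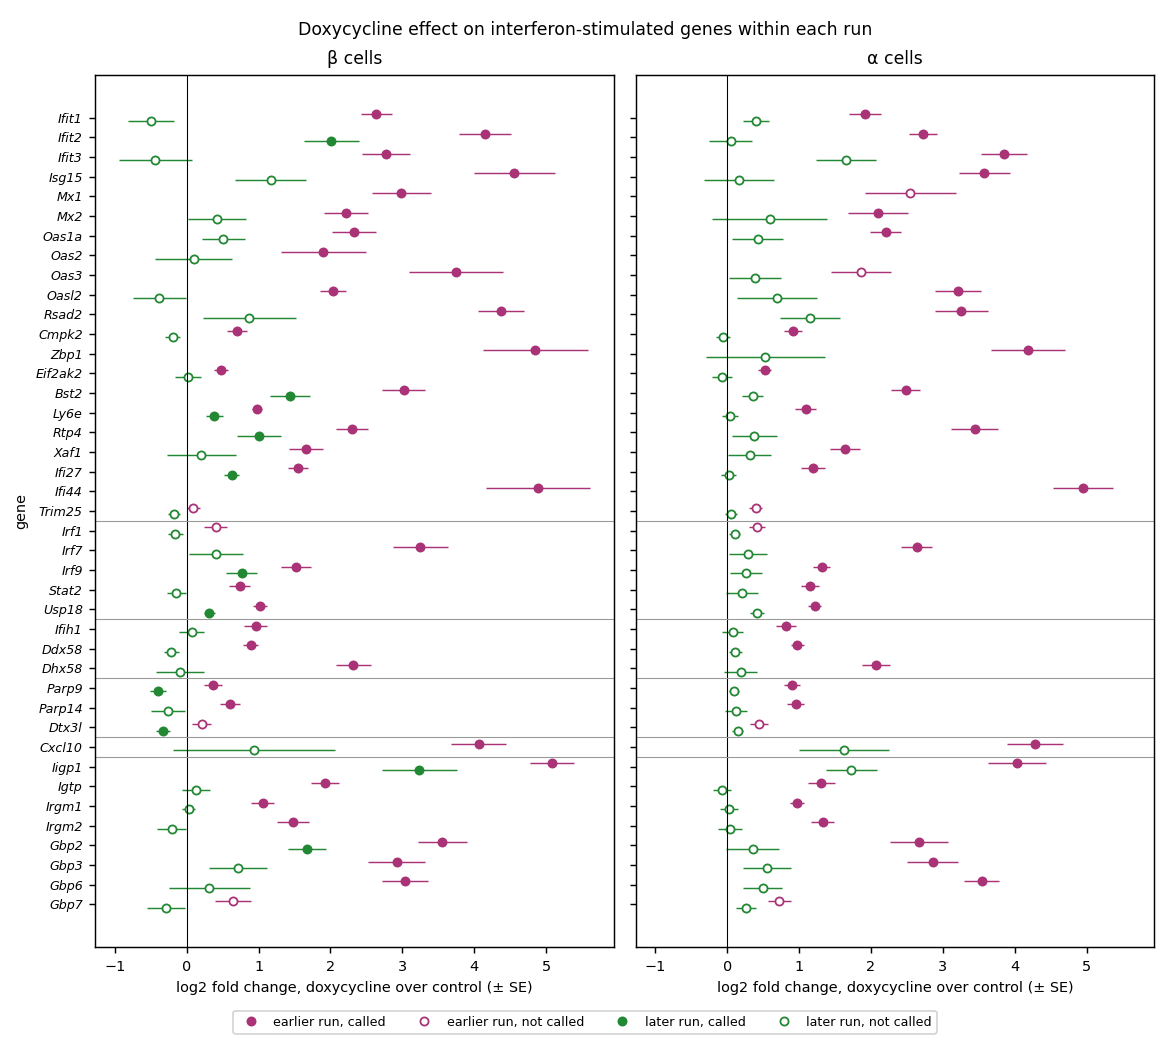
Log2 fold change of doxycycline over control within each run, with bars of ± 1 SE, in β cells (left) and α cells (right); filled points passed an adjusted p of 0.05 over all genes. The later-run point lies to the left of the earlier-run point for each gene with both points, 37 in β cells and 38 in α cells.

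Among the antiviral effectors, 20 of 21 rose in β cells and 17 of 20 tested in α cells of the earlier run. Ifit1, which holds back translation of foreign RNA, stood in the earlier run in β cells at 1.15, 2.05, 2.24, 2.25 and 3.71 CPM in controls and 9.72, 6.27, 18, 16 and 21 CPM after doxycycline. The lowest treated library thus exceeded the highest control, and in α cells the same held, with 4.79, 4.48, 4.49, 7.09 and 10.1 CPM in controls and 19.1, 17.7, 39, 15.6 and 27.3 CPM after doxycycline. Ifit1 overlapped throughout in the later run, with 0.834 to 2.84 CPM (median 1.35) in controls and 0.649 to 2.36 CPM (median 0.988) after doxycycline in β cells. In α cells it lay at 3.85 to 5.62 CPM (median 4.74) in controls and 4.33 to 12.1 CPM (median 5.88) after doxycycline, the top value being the ZT16 library. The log2 fold change of Ifit1 in β cells was 2.64 ± 0.22 (adjusted p = 9.60e-05) within the earlier run against -0.498 ± 0.32 (adjusted p = 0.282) within the later.

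Ifit2, a relative of Ifit1, was near the limit of detection in controls. In the earlier run it stood in β cells at 0.0719, 0.374, 0.344, 0.477 and 1.29 CPM in controls and 5.44, 4.49, 9.85, 7.47 and 12.2 CPM after doxycycline. The groups were apart, and so they were in α cells, with 0.586, 0.995, 1.45, 0.652 and 1.19 CPM in controls and 4.47, 5.65, 9.17, 4.59 and 8.54 CPM after doxycycline. Unlike Ifit1 it remained above its controls in β cells of the later run, at 0.104 to 0.417 CPM (median 0.283) in controls and 0.439 to 1.75 CPM (median 1.12) after doxycycline, and rose by 2.01 ± 0.38 (adjusted p = 0.00393). In α cells of that run it overlapped, at 0.451 to 2.23 CPM (median 0.884) in controls and 0.705 to 1.64 CPM (median 0.807) after doxycycline.

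Bst2, known as tetherin, holds budding virus at the cell surface. β cells of the earlier run held 2.66, 3.08, 1.03, 2.04 and 6.04 CPM in controls and 26.6, 11.5, 24.3, 15.9 and 35.2 CPM after doxycycline. α cells held 3.71, 4.38, 2.97, 3.51 and 8.74 CPM in controls and 22.9, 13, 32.5, 20.6 and 41 CPM after doxycycline, again without overlap. The ZT20 control was the highest control in both cell types. Later-run β cells kept the groups apart at a lower level, 1.03 to 2.23 CPM (median 2.08) in controls and 2.33 to 9.13 CPM (median 4.48) after doxycycline, and Bst2 rose there by 1.44 ± 0.28 (adjusted p = 0.0046). Later-run α cells overlapped at 2.88 to 5.08 CPM (median 4.63) in controls and 4.61 to 6.92 CPM (median 5.17) after doxycycline.

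Ly6e, the most abundant of the 41, is a surface protein with a role in virus entry. Its earlier-run β libraries held 119, 131, 81.7, 87.4 and 106 CPM in controls and 225, 249.2, 166, 153 and 221 CPM after doxycycline, and it rose by 0.98 ± 0.07 (adjusted p = 6.11e-05). Its α libraries held 225, 276, 234, 237 and 354 CPM in controls and 643, 414, 687, 582 and 514 CPM after doxycycline, and it rose by 1.10 ± 0.15 (adjusted p = 0.0022). All treated libraries lay above all controls in both cell types. Later-run β cells held 82.2 to 161 CPM (median 90.044) in controls and 103 to 169 CPM (median 128) after doxycycline, a rise of 0.39 ± 0.12 (adjusted p = 0.0323), and α cells held 152 to 290 CPM (median 241) in controls and 191 to 305 CPM (median 222) after doxycycline, with no call. Both overlapped widely, with 6 of 7 treated β libraries below the highest control.

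Ifi27, a small mitochondrial and membrane protein, behaved likewise. β cells of the earlier run held 18.5, 24.1, 16.4, 11.8 and 20.1 CPM in controls and 66.1, 43.8, 54.2, 36.7 and 57.1 CPM after doxycycline. α cells held 23, 27.9, 24.7, 18.8 and 30.2 CPM in controls and 75.3, 33.6, 74.1, 37.7 and 78 CPM after doxycycline. Neither pair of groups overlapped. Ifi27 rose again in later-run β cells by 0.63 ± 0.10 (adjusted p = 0.00204), at 11.2 to 21.7 CPM (median 16.5) in controls and 19.1 to 34.4 CPM (median 25) after doxycycline. In later-run α cells it lay at 16.7 to 22 CPM (median 20.030) in controls and 14.5 to 23 CPM (median 21.5) after doxycycline.

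Cmpk2 and Eif2ak2 had high controls and small changes. Cmpk2 held 45.8, 21.8, 21.9, 30.2 and 36.4 CPM in controls and 45.5, 42.6, 45.1, 47.1 and 59.6 CPM after doxycycline in earlier-run β cells, where 3 of 5 treated libraries lay at or below the highest control (ZT4). In α cells it held 14.8, 13.9, 9.67, 16.3 and 14.1 CPM in controls and 27.8, 25.6, 22.4, 21.1 and 33.7 CPM after doxycycline, without overlap, and rose by 0.92 ± 0.12 (adjusted p = 0.00229). Later-run Cmpk2 lay at 25.6 to 42.7 CPM (median 32.6) in controls and 24.5 to 33.5 CPM (median 28.4) after doxycycline in β cells. α cells held 14.8 to 21 CPM (median 17.6) in controls and 12.3 to 19.7 CPM (median 17) after doxycycline, with no call. Eif2ak2 encodes PKR, the kinase that halts translation when it meets double-stranded RNA. It stood at 14.1, 13, 18.5, 16.3 and 17.6 CPM in controls and 20.1, 15.7, 31.3, 19.9 and 22.9 CPM after doxycycline in earlier-run β cells. α cells held 19.6, 18.2, 17.7, 16.6 and 19.7 CPM in controls and 24.3, 22.6, 28.7, 23.3 and 34.3 CPM after doxycycline. All treated libraries exceeded all controls in α cells, and 4 of 5 did in β cells. The rises were 0.47 ± 0.10 (adjusted p = 0.00685) and 0.52 ± 0.10 (adjusted p = 0.0239). Later-run libraries lay at 10.1 to 23.4 CPM (median 19.3) in controls and 13.3 to 20.9 CPM (median 17) after doxycycline in β cells. α cells held 15.5 to 29.8 CPM (median 20.5) in controls and 14.7 to 25.7 CPM (median 20.9) after doxycycline, both overlapping.

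Ifi44, of unsettled function, had the largest fold in α cells but rests on few counts. Its 5 earlier-run control libraries held 0 to 8 estimated counts each in α cells and 0 to 12 in β cells, against 58 to 240 and 36 to 282 after doxycycline. In CPM these were 0, 0.0995, 0.152, 0.326 and 0.397 CPM in controls and 2.54, 3.91, 12.9, 4.07 and 7.58 CPM after doxycycline in α cells. In β cells they were 0.144, 0, 0, 0.0682 and 0.518 CPM in controls and 2.14, 1.68, 11, 3.04 and 3.97 CPM after doxycycline, with ZT12 the highest treated library in both cell types. Fitted changes were 4.95 ± 0.42 (adjusted p = 9.96e-05) in α and 4.89 ± 0.73 (adjusted p = 0.00137) in β cells, and at such counts their size depends on the prior count of the fit. Ifi44 passed the filter in neither cell type of the later run, with values of 0 to 0.223 CPM (median 0.0642) in controls and 0.0382 to 0.543 CPM (median 0.143) after doxycycline in β cells. α cells held 0 to 0.177 CPM (median 0.0451) in controls and 0 to 1.2 CPM (median 0.0931) after doxycycline.

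Trim25 was the exception of the group, with the smallest change in both cell types of the earlier run. Its earlier-run β libraries held 101, 90.5, 99.2, 82.2 and 78.3 CPM in controls and 89.1, 110, 117, 83.8 and 76.1 CPM after doxycycline, with a change of 0.09 ± 0.08 (adjusted p = 0.427). The α libraries held 88.1, 92.6, 81.5, 75.2 and 71 CPM in controls and 105, 107, 124, 84.9 and 121 CPM after doxycycline, with a change of 0.40 ± 0.09 (adjusted p = 0.0675). The β groups were mixed, and 4 of 5 treated α libraries exceeded every control. DESeq2, and edgeR with no filter, called Trim25 higher in these α cells. Later-run values were 98.7 to 125 CPM (median 110) in controls and 74 to 122 CPM (median 98.8) after doxycycline in β cells. α cells held 72.8 to 103 CPM (median 101) in controls and 73.3 to 118 CPM (median 96.7) after doxycycline. The other effectors rose in both cell types of the earlier run, from Xaf1 (1.65 ± 0.24 in β, 1.64 ± 0.21 in α) to Rsad2, the viperin gene (4.37 ± 0.32 and 3.26 ± 0.37), Isg15, the ubiquitin-like modifier (4.56 ± 0.56 and 3.58 ± 0.36), and Zbp1, a sensor of left-handed nucleic acid (4.85 ± 0.73 and 4.18 ± 0.51). Exceptions were Mx1 and Oas3, called by edgeR in β and not in α cells, where DESeq2 called both, and Oas2, called in β cells and not tested in α. Values of near-identical copies such as Oas1a with Oas1g and Ifit3 with Ifit3b are uncertain where reads could be shared.

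**Figure D4:**
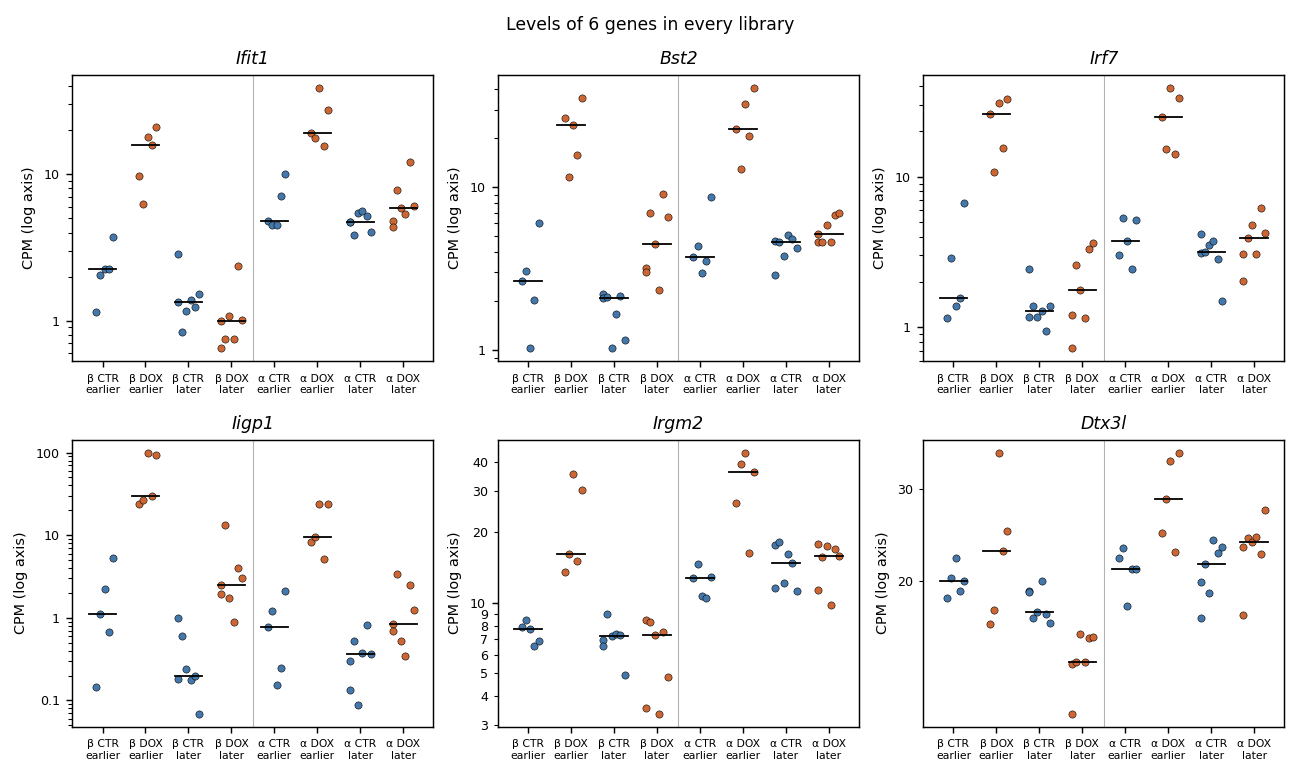
CPM of 6 genes in every library on a log axis, blue for control and orange for doxycycline, ordered by zeitgeber time within a group; black lines are group medians. Earlier-run treated libraries lie apart from their controls for Ifit1, Bst2, Irf7, Iigp1 and Irgm2, and the Dtx3l panel shows the 7 later-run β treated libraries below their 7 controls.

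Of the 5 transcription factors and feedback genes 4 rose in each cell type in the earlier run. Irf7, the amplifier of the type I response, was the most changed. Irf7 held in the earlier run 1.15, 2.9, 1.38, 1.57 and 6.69 CPM in controls and 26.3, 10.8, 31.1, 15.5 and 32.7 CPM after doxycycline in β cells. α cells held 3.03, 5.33, 3.73, 2.45 and 5.16 CPM in controls and 25, 15.3, 39.2, 14.1 and 33.4 CPM after doxycycline. The groups did not overlap, and the rises were 3.25 ± 0.38 (adjusted p = 4.48e-04) and 2.64 ± 0.21 (adjusted p = 9.26e-05). The later-run groups overlapped, at 0.943 to 2.45 CPM (median 1.27) in controls and 0.725 to 3.61 CPM (median 1.76) after doxycycline in β cells. α cells held 1.49 to 4.18 CPM (median 3.15) in controls and 2.04 to 6.23 CPM (median 3.9) after doxycycline.

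Usp18 had high controls and narrow groups. Earlier-run β cells held 28.2, 36.9, 32.6, 25.3 and 26.7 CPM in controls and 63.9, 59.3, 65.6, 47.9 and 60.1 CPM after doxycycline. α cells held 25.6, 21.1, 25.6, 21.3 and 27.1 CPM in controls and 48.2, 50.032, 73.4, 48.5 and 63.6 CPM after doxycycline, again apart. Later-run β cells held 21.6 to 32.2 CPM (median 26.1) in controls and 26.9 to 38.8 CPM (median 33) after doxycycline, a rise of 0.32 ± 0.08 (adjusted p = 0.0155). Later-run α cells held 16.1 to 25.9 CPM (median 18.7) in controls and 21.1 to 30.010 CPM (median 25.8) after doxycycline, where the change of 0.41 ± 0.10 was not called. Over both runs it was 1 of 3 genes that rose in α cells. Irf9, the DNA-binding partner of STAT2, rose in the earlier run by 1.52 ± 0.21 in β and 1.32 ± 0.12 in α cells, and in β cells of the later run by 0.76 ± 0.21 (adjusted p = 0.023). Stat2 rose by 0.74 ± 0.15 and 1.16 ± 0.13 in the earlier run and was not called in the later one.

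Irf1, which both interferon types are known to induce early and directly, was the regulator that edgeR with its filter on low counts called in no doxycycline comparison; in β cells of the earlier run DESeq2 called it, and edgeR with no filter called it in both cell types of that run. Irf1 stood in the earlier run at 25.8, 25.6, 25.1, 24.6 and 32.3 CPM in controls and 34.2, 28.3, 52, 21.2 and 44.5 CPM after doxycycline in β cells, a difference of 0.40 ± 0.16 (adjusted p = 0.0765). In α cells it stood at 26.7, 23, 20.1, 22.2 and 20.8 CPM in controls and 26.6, 30.4, 36, 26.2 and 32 CPM after doxycycline, a difference of 0.42 ± 0.11 (adjusted p = 0.162). In each cell type 3 of 5 treated libraries exceeded the highest control (ZT4, ZT12 and ZT20 in β, ZT8, ZT12 and ZT20 in α cells). Later-run values were 18.5 to 28.1 CPM (median 20.6) in controls and 15.3 to 23.2 CPM (median 21) after doxycycline in β cells. α cells held 22.8 to 32.4 CPM (median 25.8) in controls and 25 to 34.3 CPM (median 28.1) after doxycycline.

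All 3 RNA sensors rose in both cell types in the earlier run and in neither in the later run. Ifih1 stood in earlier-run β cells at 10.1, 13, 10.4, 9.54 and 8.84 CPM in controls and 18.4, 15, 25.6, 18.6 and 21.7 CPM after doxycycline. Earlier-run α cells held 61, 71.9, 52.5, 44.8 and 77.9 CPM in controls and 141, 124, 129, 68.7 and 88 CPM after doxycycline, where the ZT16 treated library lay within the controls; the β groups did not overlap. The rises were 0.96 ± 0.16 (adjusted p = 0.00237) and 0.82 ± 0.13 (adjusted p = 0.00979), and in the later run Ifih1 lay at 7.29 to 13 CPM (median 8.98) in controls and 5.45 to 12.4 CPM (median 11.3) after doxycycline in β cells. α cells held 47.9 to 86.9 CPM (median 68.1) in controls and 52.6 to 105 CPM (median 69.2) after doxycycline. Ddx58 encodes RIG-I, the sensor of short RNA ends. It stood at 15.2, 12.8, 19.8, 15 and 17.9 CPM in controls and 23.3, 20.9, 38.1, 27.2 and 40.1 CPM after doxycycline in earlier-run β cells. It stood at 23.2, 28.2, 31.4, 23.9 and 25.3 CPM in controls and 46.9, 49.9, 68, 38.2 and 60.8 CPM after doxycycline in α cells. Neither pair of groups overlapped. The rises were 0.89 ± 0.10 (adjusted p = 3.64e-04) and 0.98 ± 0.09 (adjusted p = 1.50e-04). Ddx58 lay in the later run at 12.7 to 15.2 CPM (median 14.5) in controls and 9.07 to 14 CPM (median 12.8) after doxycycline in β cells. α cells held 20.5 to 31.7 CPM (median 23.9) in controls and 20.3 to 35.3 CPM (median 25) after doxycycline. Dhx58, a relative without the signalling domain, rose by 2.32 ± 0.25 and 2.07 ± 0.19.

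Of the 3 ADP-ribosylation genes 2 fell in β cells of the later run (10.6% of all genes fell), and Parp14 stood at -0.26 ± 0.24 without a call. Parp9 and Dtx3l, whose proteins form a complex that modifies ubiquitin, fell there by 0.39 ± 0.11 and 0.33 ± 0.10 on the log2 scale (edgeR adjusted p = 0.0269 and 0.0287). Dtx3l lay at 16.6 to 20.001 CPM (median 17.5) in controls and 11.2 to 15.9 CPM (median 14) after doxycycline, the 7 treated libraries below the 7 controls. Parp9 lay at 11.8 to 15.5 CPM (median 14.5) in controls and 8.73 to 15.2 CPM (median 9.77) after doxycycline, where the groups overlapped. Without ZT0 neither fall was called in that run, and 10 of 38 genes rose, where 2725 of 15298 genes were called in either direction. In the earlier run edgeR had called a rise of Parp9 in both cell types (DESeq2 in α cells only), by 0.37 ± 0.12 in β and 0.91 ± 0.11 in α cells, with 13.7, 11.3, 19.4, 16.8 and 14.4 CPM in controls and 15.9, 15.2, 27.9, 15.3 and 22.7 CPM after doxycycline in β cells. There 3 of 5 treated libraries lay at or below the highest control. In α cells Parp9 held 13, 16, 15.8, 14.4 and 15.6 CPM in controls and 27.8, 28.1, 34.5, 19.2 and 32.9 CPM after doxycycline, without overlap. Dtx3l was called by edgeR in neither (by DESeq2 in α cells), with 18.6, 20.3, 22.2, 19.1 and 20.017 CPM in controls and 16.6, 17.6, 35.1, 22.8 and 24.9 CPM after doxycycline in β cells, 2 of 5 treated libraries lying below every control. In α cells Dtx3l held 22.2, 23.1, 17.9, 21.1 and 21.1 CPM in controls and 24.7, 28.7, 33.9, 22.8 and 35.1 CPM after doxycycline, and 1 of 5 treated libraries lay within the controls. Later-run α cells overlapped for both genes, with Parp9 at 13.5 to 16.6 CPM (median 15.4) in controls and 14.4 to 18.5 CPM (median 15.7) after doxycycline. Dtx3l held 17 to 23.9 CPM (median 21.5) in controls and 17.2 to 27.3 CPM (median 23.8) after doxycycline there. Parp14 rose in the earlier run by 0.60 ± 0.13 in β and 0.95 ± 0.12 in α cells.

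Cxcl10, the chemokine that draws T cells through CXCR3, was nearly silent in controls. Its earlier-run β libraries held 0.144, 0.841, 0.258, 1.16 and 2.24 CPM in controls and 7.82, 6.36, 14.6, 12.1 and 29.7 CPM after doxycycline. Its α libraries held 0, 0.299, 0.533, 0.0815 and 0.794 CPM in controls and 3.5, 2.93, 6.69, 4.5 and 14.4 CPM after doxycycline. All treated libraries lay above all controls, with ZT20 highest in both cell types, and the rises were 4.06 ± 0.38 (adjusted p = 1.67e-04) and 4.28 ± 0.39 (adjusted p = 1.50e-04). Later-run values overlapped, at 0 to 1.72 CPM (median 0.208) in controls and 0 to 2.63 CPM (median 0.543) after doxycycline in β cells. α cells held 0 to 0.33 CPM (median 0.0902) in controls and 0.0384 to 2.46 CPM (median 0.252) after doxycycline, with ZT16 highest in both.

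Of the 8 GTPase genes of the interferon-gamma type, whose proteins attack the vacuoles of intracellular parasites, 7 rose in each cell type in the earlier run; Gbp7 was called by edgeR in neither, and by DESeq2 in α cells (0.64 ± 0.25 in β, 0.73 ± 0.15 in α). Iigp1 had the largest fold of all 41 genes in β cells. It stood there in the earlier run at 0.144, 1.12, 2.24, 0.682 and 5.35 CPM in controls and 24, 26.5, 99.1, 30.1 and 92.4 CPM after doxycycline. In α cells it stood at 0.782, 1.19, 0.152, 0.245 and 2.12 CPM in controls and 8.23, 9.56, 24.2, 5.11 and 23.6 CPM after doxycycline, with no overlap in either cell type. The rises were 5.08 ± 0.30 (adjusted p = 2.27e-05) and 4.03 ± 0.40 (adjusted p = 2.52e-04). Iigp1 lay in later-run β cells at 0.0696 to 1.0013 CPM (median 0.195) in controls and 0.897 to 13.3 CPM (median 2.48) after doxycycline and rose by 3.24 ± 0.52 (adjusted p = 0.00188), with ZT4 highest and a small overlap. Later-run α cells held 0.0886 to 0.824 CPM (median 0.361) in controls and 0.346 to 3.4 CPM (median 0.845) after doxycycline, and the difference of 1.73 ± 0.35 (adjusted p = 0.841) was the largest of that comparison without being called.

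Irgm1 and Irgm2, regulators of the other GTPases in this family, had the highest mean CPM of the group over all 48 libraries. Irgm1 held 14.5, 16.9, 14.2, 15.2 and 15.5 CPM in controls and 21.6, 25.6, 38.9, 28.3 and 47.2 CPM after doxycycline in earlier-run β cells. α cells held 14, 17.6, 17.4, 15 and 20.3 CPM in controls and 23.1, 36.5, 44.9, 27.2 and 36.5 CPM after doxycycline. Neither pair overlapped. Irgm2 held 7.91, 8.41, 7.75, 6.54 and 6.9 CPM in controls and 13.5, 16.2, 35.4, 15 and 30.4 CPM after doxycycline in earlier-run β cells. Irgm2 held 12.7, 14.6, 10.7, 10.52 and 12.8 CPM in controls and 26.5, 39.1, 43.6, 16.4 and 36.1 CPM after doxycycline in α cells. None of these 4 pairs of groups overlapped. All 4 did in the later run. Irgm1 lay at 11.3 to 18 CPM (median 12.7) in controls and 10.7 to 18.1 CPM (median 13.3) after doxycycline in β cells. α cells held 13.9 to 23.2 CPM (median 21.3) in controls and 13.2 to 25.3 CPM (median 20.3) after doxycycline. Irgm2 lay at 4.94 to 8.93 CPM (median 7.23) in controls and 3.37 to 8.44 CPM (median 7.28) after doxycycline in β cells. α cells held 11.3 to 18.2 CPM (median 14.7) in controls and 9.77 to 17.8 CPM (median 15.8) after doxycycline. Gbp6 was among the genes that differed most between the runs in α cells, holding 0.293, 0.498, 0.533, 0.489 and 1.99 CPM in controls and 6.48, 4.45, 9.38, 5.02 and 15.7 CPM after doxycycline in the earlier run. β cells of that run held 0.288, 0.841, 0.603, 0.477 and 2.16 CPM in controls and 3.05, 2.99, 10.9, 3.87 and 14.6 CPM after doxycycline. Gbp6 lay in the later run at 0.665 to 1.35 CPM (median 0.989) in controls and 0.615 to 2.34 CPM (median 1.47) after doxycycline in α cells. β cells held 0.274 to 0.742 CPM (median 0.545) in controls and 0.0359 to 1.49 CPM (median 0.585) after doxycycline. Gbp2 rose in β cells of both runs, by 3.56 ± 0.35 and 1.68 ± 0.26. Reads of the Gbp genes, and of Igtp with Irgm2, could be shared between relatives, and their single values are uncertain to that extent.

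The GTPase genes and the other 33 were set side by side. In the earlier run their median log2 fold changes were 2.42 and 2.04 in β cells and 2.00 and 1.89 in α cells. Later-run medians were 0.22 and 0.10 in β cells and 0.31 and 0.24 in α cells, with 2 of 8 GTPase genes (Iigp1 and Gbp2) and 7 of 29 others higher in β cells. Both of these GTPase genes, and Ifit2 among the others, passed the filter there only with doxycycline and so had to be higher. Iigp1 and Gbp6 did so in both cell types of the earlier run, and the medians take such genes in. No test of the 2 lists against each other was made, and the lists were compared by counts and medians alone.

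The difference between the runs was tested as the interaction of treatment and run. In β cells the later effect was smaller for 39 of 39 genes tested (median -1.57; median over all genes 0.01), and the interaction was called for Ifit1 (-3.08 ± 0.44, adjusted p = 0.0123) and Ddx58 (-1.09 ± 0.18, adjusted p = 0.0394), 2 genes, against 0.0461% of 15188 genes (0.0395% with a smaller and 0.00658% with a larger later effect). In α cells it was smaller for 38 of 38 genes (median -1.42; median over all genes 0.00) and called for 10, against 0.114% of 14932 genes (0.107% smaller and 0.0067% larger). These were Gbp6 (-2.97 ± 0.47), Ifit2 (-2.75 ± 0.53), Irf7 (-2.38 ± 0.45), Bst2 (-2.13 ± 0.31, adjusted p = 0.00846), Ifi27 (-1.19 ± 0.22), Ly6e (-1.05 ± 0.19), Cmpk2 (-0.98 ± 0.15, adjusted p = 0.00926), Ddx58 (-0.86 ± 0.16), Parp9 (-0.81 ± 0.14) and Usp18 (-0.80 ± 0.15). Of the 17 genes called in that test over the whole transcriptome, 16 had a smaller effect in the later run, and 10 of these 16 were among the 41. The counts of calls were unsteady: leaving out 1 library at a time gave 0 to 9 genes in β cells and 3 to 17 in α cells, the highest count in each without the later-run ZT16 doxycycline library. The β count was 0 without the earlier-run control of ZT12 or ZT16 or the doxycycline library of ZT20, and the α count was 3 to 6 without any of the other libraries that moved it by over 1.5 times. Without ZT0 the counts were 1 and 2, where 7 of 14894 and 6 of 14587 genes were called. The run stands for everything that differed between the 2 sets of libraries, and these differences cannot be told apart. Whether the sets came from different animals is not given in the labels.

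With both runs in 1 fit, 24 of 39 genes rose in β cells and none fell (median 0.95; 23.8% of 15188 genes rose). Of the 29 that passed the filter on controls alone 15 rose (median 0.62; 21.3% of genes so selected). In α cells Ifit3 (2.61 ± 0.41, adjusted p = 0.00763), Usp18 (0.74 ± 0.11, adjusted p = 0.00763) and Iigp1 (2.78 ± 0.501, adjusted p = 0.0235) rose, 3 of 38 (median 0.94; 0.0804% of 14932 genes rose and 0.0469% fell), although 37 of the 38 had an unadjusted p under 0.05 and DESeq2 called 18 (125 of 14932 of all genes). Ifit3 and Iigp1 passed the filter only with doxycycline, so that of the 30 genes passing on controls alone Usp18 rose (median 0.60; 0.0674% of genes so selected). The difference of the effect between β and α cells was tested itself, and it was called for 4 of 41 genes, against 25.5% of 16207 genes. Ifit2 had the larger effect in β cells (1.71 ± 0.59, adjusted p = 0.0298). Trim25 (-0.28 ± 0.10, adjusted p = 0.0422), Parp9 (-0.52 ± 0.18, adjusted p = 0.032) and Dtx3l (-0.38 ± 0.13, adjusted p = 0.0271) had the larger effect in α cells. Without ZT0 these 3 calls were lost and 2 genes were called, both larger in β cells (Ifit2 and Oas3), where 3665 of 15851 genes were called. The call of Trim25 was also lost with RLE scaling, with DESeq2, with the replicate number as a block and without ZT12 and ZT20 of the earlier run. For the other 37 genes the interaction missed the threshold by edgeR (DESeq2 called Ifit3 and Oas3 as well), with differences from -1.61 ± 0.67 (Ifit3) to 1.62 ± 0.97 (Zbp1), intervals that leave room for sizable differences either way.

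Within the groups the libraries did not stand level. The median over the 41 genes of log2(CPM + 0.5) minus the control mean of the same cell type and run was used as a summary by library. In the earlier run it came to 1.51, 1.13, 2.17, 1.36 and 2.27 in treated β libraries and to 1.52, 1.15, 2.03, 0.999 and 2.09 in treated α libraries. ZT12 and ZT20 were thus the highest in both cell types, and together they held the top value of 39 genes in β cells (20 and 19) and 39 in α cells (22 and 17). Among controls of that run ZT20 stood highest in both cell types, at 0.36 in β and 0.33 in α cells, and held the top value of 22 and 29 genes. Treated libraries of the later run ranged from -0.13 to 0.59 in β cells and from -0.09 to 0.78 in α cells, with ZT16 highest in both (top value of 20 and 23 genes). That the same time point leads in both cell types is a description; with 1 library per time and run it cannot be told whether it belongs to the time of day or to the animals of that library. Without ZT12 and ZT20 the earlier run still gave 31 of 41 genes higher in β and 31 of 39 in α cells. In these fits 2692 of 14418 and 99 of 14188 genes were called in either direction. The fits over both runs then gave 14 higher and 1 lower (Dtx3l) of 37 in β cells, where 6232 of 15204 genes were called. In α cells they gave none of 38, where 1 of 14973 genes was called. In that β fit without these times the share called in either direction was thus not particular to these genes. Their calls there were 14 higher and 1 lower, and the calls of all genes were not split by direction. These times were left out after the values had been seen.

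The other genes of the pathway were taken from lists of ligands, receptors, sensors, inhibitors and further targets. None of 10 interferon genes could be tested: Ifnb1 had counts in 2 of 48 libraries (4 at most), Ifng in 2 (2 at most), Ifna2, Ifnk and Ifnl3 in 1 library each (2 counts), and Ifna1, Ifna4, Ifna5, Ifne and Ifnl2 had no count in any library. The receptors and kinases were measured in both cell types. Over both runs 6 of 9 rose and 1 fell in β cells, where 23.8% of all genes rose and 23.1% fell. Those that rose included Ifnar2 (0.70 ± 0.07, adjusted p = 3.75e-07), Ifngr2 (0.52 ± 0.09, adjusted p = 8.32e-05) and Il10rb (0.39 ± 0.10), and Jak1 fell by 0.57 ± 0.06. In α cells edgeR called 0 of 9 (0.127% of all genes), and 0 of 9 in either run alone. Within the later run Ifnar2 stood at 0.59 ± 0.09 and Jak1 at -0.49 ± 0.10.

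Of 19 further interferon-induced genes, 14 of 18 tested rose and 1 fell in earlier-run β cells (median 1.52), and 9 of 13 rose in α cells (median 0.98). Of all genes 17.7% rose and 14.7% fell in these β cells, and 0.864% rose in these α cells. Later-run counts were lower: 6 of 18 rose and 3 fell in β cells (median -0.17), and 0 of 15 were called in α cells. In β cells of that run 13.9% of all genes rose and 10.6% fell. Of 16 genes mostly known from interferon gamma, 10 of 13 tested rose in earlier-run β cells (median 2.09) and 8 of 12 in α cells (median 1.66), among them Tap1, a peptide transporter of antigen presentation (1.499 ± 0.18 and 1.002 ± 0.13), and the GTPase gene Tgtp2 (3.53 ± 0.63 and 4.05 ± 0.38), both named after their values were seen. Within the later run 4 of 11 rose and 1 fell in β cells and 0 of 13 were called in α cells. The filter on controls alone was not applied to these lists. Genes that entered only through doxycycline libraries had to be higher, and the counts and medians take them in. Tgtp2 is such a gene, with 0 to 14 counts in earlier-run β controls and 2 to 16 in α controls. Together the 41 genes and these lists made up 52 of the 121 genes that rose in α cells of the earlier run (34 and 18). All of these genes were listed with earlier results of these data known, and 25 of the 34 passed the filter on controls alone. The share is therefore a description only.

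Among the pathway genes that rose in β cells of both runs were Cxcl9 (4.999 ± 0.69 in the earlier and 5.81 ± 0.94 in the later run), Irf8 (2.18 ± 0.41 and 2.19 ± 0.48), Tlr9 (3.20 ± 0.72 and 1.88 ± 0.54), Ifi204 (2.88 ± 0.54 and 2.41 ± 0.46), Sp100 (2.59 ± 0.58 and 2.72 ± 0.54) and Slfn2 (3.20 ± 0.46 and 2.07 ± 0.44), chosen here after their values were seen. Their controls held few counts: Cxcl9 had 0 to 24 in β controls of the earlier run and 0 to 34 in the later. Tlr9 had 0 to 18 and 4 to 78, and Ifi204 had 4 to 26 and 8 to 42. A gene that entered a fit only through its doxycycline libraries had to be higher. The filter on controls alone was not applied to these genes. Cxcl9, Tlr9 and Ifi204 did not pass the filter in α cells over both runs, and Irf8, Sp100 and Slfn2 were not called there. Irf8 and Tlr9 are known to be expressed in macrophages and dendritic cells.

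Markers of macrophages and dendritic cells moved with doxycycline in β cells of both runs. All 15 were tested there, and 11 rose in the earlier run and 15 later (medians 2.15 and 2.22, where the 41 genes had 2.04 and 0.13). Of all genes 17.7% and 13.9% rose in these fits. The summed level of the markers in β cells was 53.1 to 388 CPM in earlier controls and 289 to 1223 CPM after doxycycline, and 69.8 to 340 CPM and 129 to 1715 CPM in the later run. In α cells the sums were 65.3 to 92.9 CPM and 73.7 to 128 CPM in the earlier run, and 42.8 to 125 CPM and 58.0 to 100.5 CPM in the later run. Of 8 markers tested in earlier-run α cells Cd74 and H2-Aa rose (1.66 ± 0.21 and 1.69 ± 0.29), where 0.864% of all genes rose. Both are genes that interferon gamma is itself known to induce. A median under 0.5 CPM was found for 8 of the 15 markers in earlier-run α cells of either treatment. The part of the macrophage markers in the rises of the earlier run and in those of later-run β cells (Iigp1, Ifit2, Gbp2, Bst2, Rtp4, Irf9, Ifi27, Ly6e and Usp18) was not tested. In bulk samples more cells of a type and more RNA per cell cannot be told apart.

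**Figure D5:**
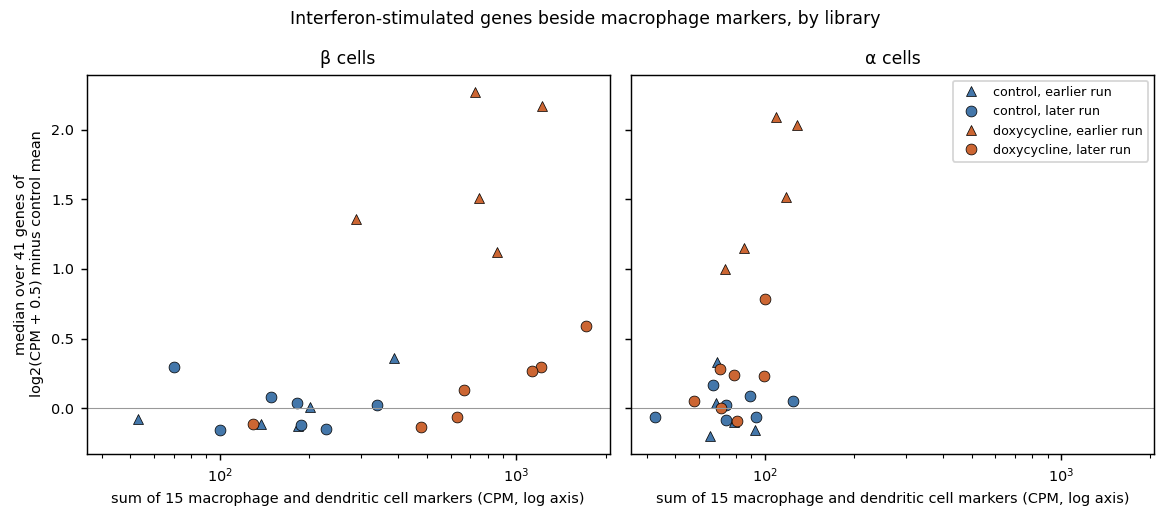
Each point is a library: the sum of 15 macrophage and dendritic cell markers in CPM (log axis) against the median over the 41 genes of log2(CPM + 0.5) minus the control mean of its cell type and run. The 5 earlier-run treated libraries of each cell type lie at or above 0.999, in α cells at marker sums of 73.7 to 128 CPM, and the 7 later-run treated libraries lie at or below 0.78 in both cell types.

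Markers of other cell types moved too. In earlier-run β cells δ and PP cell markers summed to 476 to 709 CPM in controls and 767 to 1023 CPM after doxycycline, and duct markers to 194 to 287 CPM and 289 to 353 CPM, in both cases without overlap. Later-run β sums overlapped, at 343 to 1115 CPM (median 572) and 632 to 1641 CPM (median 1134) for δ and PP cells. For duct markers they were 180 to 218 CPM (median 195) and 206 to 322 CPM (median 246). In α cells δ and PP cell markers summed to 21519 to 48983 CPM in earlier controls and 41436 to 58300 CPM after doxycycline. Later-run α sums were 24576 to 34008 CPM and 31930 to 55494 CPM, and both pairs overlapped. T and NK cell markers, whose cells make interferon gamma, summed to 1.11 to 4.17 CPM (median 2.41) in earlier treated β libraries against 0.187 to 0.861 CPM (median 0.545) in controls, with Ncr1 and Gzmb at 0 in both groups, and to 1.21 to 21.7 CPM against 0 to 12.8 CPM in α cells. Later-run β sums were 0.897 to 6.98 CPM (median 2.17) after doxycycline against 0.0348 to 5.999 CPM (median 0.364) in controls. Later-run α sums were 0.0769 to 17.1 CPM against 0.631 to 44.7 CPM. In treated β libraries of either run 9 of these 10 markers had a median under 0.5 CPM. Of the acinar markers 7 of 7 tested fell in earlier-run β cells (median -2.51) and none was called in the later run (median 3.48), with sums of 5.92 to 8.30 CPM in earlier treated β libraries against 6.56 to 4263 CPM in later ones. Of 5 stellate and fibroblast markers tested 3 rose in earlier-run β cells (median 2.76) and 0 of 5 were called by edgeR in the later run (median 1.13). Of all genes 17.7% rose and 14.7% fell in earlier-run β cells, and 24.5% were called in the later run. The part of the markers in the result was not tested.

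Finally, the time of day was examined in the controls. A 24 h cosine with the run as a term was called by edgeR for 0 of 29 genes in β cells (2.17% of 13302 genes) and for 0 of 30 genes tested in α cells (4.49% of 13349 genes). At an unadjusted p under 0.05 there were 4 genes in β cells, Cmpk2 first (adjusted p = 0.0563), and 3 in α cells, Ddx58 first (adjusted p = 0.112). DESeq2 called these 2 genes, Cmpk2 in β and Ddx58 in α cells, where it called 1317 of 13302 and 1518 of 13349 of all genes.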

How the data were processed

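Doxycycline and control libraries of sorted α and β cells were compared with the 2 tables the authors deposited, which hold estimated counts and RPKM per gene for 48 libraries. The submitters' processing notes name GRCm38, STAR and bcl2fastq; the counting program is not given in the sources used here. Per the labels' protocols, libraries were made from 300 ng of RNA with an unstranded polyA kit, so reads of overlapping genes cannot be told apart. The deposited RPKM equalled the deposited estimated counts scaled by total and gene length, and were used only for levels within a run. The low estimated counts were nearly all even, so 1 counted unit added 2. Depth was 16.1 to 69.9 M estimated counts per library; no columns were left without a sample.

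Estimated counts were rounded and tested with edgeR 4.0.16 in R 4.3.3 (quasi-likelihood F test, filter by group at a minimum count of 10 and a total of 15, TMM, Benjamini-Hochberg adjustment over all genes tested, threshold 0.05). Time was a term in the doxycycline fits, as was the run where both entered. The SE is the log2 fold change over the root of F. CPM used TMM over all libraries, and library summaries used log2(CPM + 0.5). The fits were tested on simulated counts: of genes changed 2-fold, 80.6% were recovered in α cells of the earlier run (14003 genes) and 82.1% in the later (15153 genes). At 1.5-fold 56.7% and 47.8% were recovered. For the difference between runs in α cells 58.2% were recovered at 2-fold and 13.4% at 1.5-fold. The simulated counts held no effect of time or run beyond the planted change, so these shares need not hold for the libraries themselves.

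The 41 genes and all lists were chosen with earlier results of these data known. A gene of the lists is not reported here. Values by library are given for the most abundant members of each role group, those whose effect differed between runs or cell types, and those with the largest and smallest change in a fit. Alternatives were DESeq2 1.42.0, RLE scaling, no filter, no run term, leaving out ZT0 or single libraries, and a replicate block; crossed ZT0 numbers and leaving out ZT12 and ZT20 of the earlier run were added after seeing the data.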

Additional observations from a re-analysis of the deposited data

Results flagged for a closer look

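In 19 of 176 groups of libraries looked at, 1 library lay far from the others of its group by Dixon's ratio, where chance alone gives about 1 in 20. The earlier-run ZT20 control stood out in β cells for the median deviation (0.36), Irf1 (32.3 CPM) and Ifi44 (0.518 CPM), and in α cells for Bst2 (8.74 CPM) and Gbp6 (1.99 CPM). The ZT0 replicate 1 control of the later run stood out high in β cells for Cxcl10 (1.72 CPM), Ifit1 (2.84 CPM) and Irf7 (2.45 CPM). In α cells it stood out low for Trim25 (72.8 CPM). The later-run ZT4 control of α cells was high for Ifit2 (2.23 CPM). Among doxycycline libraries of β cells, ZT20 was high for Cmpk2 (59.6 CPM) and ZT12 for Ifi44 (11.0 CPM) in the earlier run. In the later run ZT0 replicate 2 was low for Dtx3l (11.2 CPM), and ZT16 was high for Ifit1 (2.36 CPM), ZT4 for Iigp1 (13.3 CPM) and ZT20 for Ifi44 (0.543 CPM). The later-run ZT16 doxycycline library of α cells was high for the median deviation (0.78), Cxcl10 (2.46 CPM) and Ifit2 (1.64 CPM).

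In 16 cases the doxycycline effect itself differed between groups by an interaction tested over all genes with edgeR. Between β and α cells it differed for Ifit2 (1.71), Trim25 (-0.28), Parp9 (-0.52) and Dtx3l (-0.38), as β minus α on the log2 scale. Between the later and the earlier run it differed in β cells for Ifit1 (-3.08) and Ddx58 (-1.09). In α cells it differed for Ifit2 (-2.75), Cmpk2 (-0.98), Bst2 (-2.13), Ly6e (-1.05), Ifi27 (-1.19), Irf7 (-2.38), Usp18 (-0.80), Ddx58 (-0.86), Parp9 (-0.81) and Gbp6 (-2.97). Run, depth and whatever else differed between the 2 sets of libraries cannot be told apart.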

How the results depend on the processing

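The counts within the earlier run, within β cells of the later run and between the control cell types stayed within 1.5 times under every alternative apart from single libraries. DESeq2 called 18 genes in α cells over both runs (3 by edgeR), 16 and 19 for the difference between runs in β and α cells (2 and 10), 1 in α cells of the later run (0) and 1 rhythmic gene in each cell type (0 and 0). Over all genes DESeq2 called 125 of 14932, 87 of 15188, 52 of 14932 and 17 of 15153. For the rhythm it called 1317 of 13302 (β) and 1518 of 13349 (α). With no filter 10 of the 41 genes were called in α cells, 12 and 18 between runs, and 2 as rhythmic in β cells. Over all genes 56 of 24090, 33 of 25022, 39 of 24090 and 263 of 23285 were called. With no run term 1 gene was called in α cells and 0 (of 4) between cell types, against 12 of 14932 and 3440 of 16207 of all genes. Without ZT0 the counts were 6 in α cells, 2 between cell types, 1 and 2 between runs, and 1 rhythmic gene in each cell type. Over all genes 16 of 14587, 3665 of 15851, 7 of 14894 and 6 of 14587 were called. As rhythmic 433 of 13172 (β) and 846 of 13114 (α) were called. Without ZT12 and ZT20 of the earlier run the counts were 15 in β cells (24), 0 in α cells, and 0 and 2 between runs. Over all genes 6232 of 15204, 1 of 14973, 0 of 15204 and 3 of 14973 were called. The causes were not tested.

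Leaving out 1 library at a time gave 21 to 28 genes in β cells, 2 to 8 in α cells, 35 to 37 and 32 to 36 in the earlier run, and 7 to 12 and 0 to 0 in the later run (β and α cells). It gave 0 to 9 and 3 to 17 between runs, 2 to 5 between cell types, 25 to 30 between control cell types, and 0 to 1 and 0 to 0 rhythmic genes. The β count of the later run was 7 without the ZT4 control or the ZT4 doxycycline library, and the α count over both runs was 8 without the later ZT12 doxycycline library and 5 without the ZT0 replicate 1 control. Between cell types 10 libraries, each left out, gave 2.

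The replicate numbers did not pair the libraries: the correlation of deviations was -0.623 (α) and -0.363 (β) at ZT0, and 0.0064 to 0.196 (α) and -0.0995 to 0.233 (β) at other times. A replicate block gave 21 genes in β and 3 in α cells, 3 between cell types, 2 and 7 between runs, 11 and 0 in the later run, and 30 between controls. Over all genes the block gave 6862 of 15188, 7 of 14932, 3807 of 16207, 4 of 15188, 11 of 14932, 3485 of 15282, 0 of 15153 and 10918 of 14945. With the ZT0 numbers crossed the block gave 5 in α cells and 15 between runs in α cells (42 and 27 of all 14932 genes). Of 1280 values of single genes 1238 kept direction and side of the threshold, 24 passed it newly, 15 lost it and 3 changed sign: without ZT0, Dtx3l (0.0058) and Parp9 (0.058) over both runs in β cells, and Irf1 there without ZT12 and ZT20 (-0.070).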
